A study of Mus musculus with 6 samples.

Results

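Microglia and their myeloid relatives were followed here through genes for surface receptors, their signalling adaptors and complement chains in the embryonic mouse cortex that lacks an active copy of Mest. The list has 10 genes, of which 9 (Tyrobp, Fcer1g, Trem2, Trem3, Cx3cr1, C1qa, C1qb, C1qc and Aif1) were found by gene symbol on the array, with 11 probes, out of 15063 genes with a probe of 1 gene symbol. Csf1r, the receptor for colony stimulating factor 1, was not analysed here. Trem3 differs from the others, which were taken for what they mark: it was chosen by its measured values, which lay above 0 on all arrays. The Trem3 ratios are therefore described without a test, and they support no statement about the list. The other members, too, were listed with earlier results of these data known.

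The arrays compared single cortices of mutant embryos with single cortices of wild-type embryos at E12.5. The mutants came from males that carry a LacZ-targeted Mest allele without exons 3 to 8, mated to wild-type females, and Mest, also called Peg1, is read from the copy inherited from the father. RNA of 6 mutants was hybridised on 6 two-colour arrays against RNA of 3 wild-type cortices, with the mutant in Cy5 for mutants 3, 5 and 6 and in Cy3 for mutants 1, 4 and 7. Every wild-type cortex served on a pair of arrays, with the dyes exchanged, if the 1 wild type whose label departs from the design text is read as wild type 2, so the arrays are not fully independent. Values below are mutant over wild type on a log2 scale after the median of each array was set to 0, where a ratio of 0 means the same relative level in both cortices. Mest itself lay between -2.07 and -1.36 on the 6 arrays, which also set the direction in which the deposited ratios were read. Between 16422 and 19564 probes had a value per array and 17476 entered the tests. The files hold ratios and no signal level, so that neither the presence of microglia in these cortices nor the cortical identity of the tissue could be checked against marker levels, and fewer myeloid cells cannot be told apart from less RNA per cell.

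Microglia are the resident macrophages of the brain. They descend from yolk sac progenitors that enter the embryonic nervous system before most glia are born. Their receptors for lipids and debris, such as Trem2, have short tails that cannot signal on their own. They pair with the adaptor encoded by Tyrobp (DAP12), whose immunoreceptor tyrosine-based activation motif (ITAM) recruits the kinase Syk. Fcer1g encodes a related ITAM adaptor that serves Fc receptors. The transcription factor PU.1, encoded by Spi1, drives much of the myeloid programme.

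The RefSeq promoter table (build GRCm38.p6) held 6 of the 9 member genes found on the array. Csf1r was left out of this search. The 250 bases before the start site of these 6 genes were searched for the PU box core GAGGAA on both strands (TTCCTC on the other strand). Of these 6 promoters 4, those of Trem2, C1qb, C1qc and Aif1, contained 1 match each, and those of Fcer1g and Cx3cr1 contained none. A match was held by 23.3% of all 32851 promoters listed, and a match is a description of letters and no binding site. Trem2, C1qb and C1qc are shown, because C1qb and C1qc lie next to each other in the genome and had different patterns over arrays, while C1qc resembled the mean of the Trem2 probes. Capitals mark the match, which begins at position -40 from the start site in Trem2, -30 in C1qb and -193 in C1qc.
Trem2, chr17:48346151-48346400, plus strand: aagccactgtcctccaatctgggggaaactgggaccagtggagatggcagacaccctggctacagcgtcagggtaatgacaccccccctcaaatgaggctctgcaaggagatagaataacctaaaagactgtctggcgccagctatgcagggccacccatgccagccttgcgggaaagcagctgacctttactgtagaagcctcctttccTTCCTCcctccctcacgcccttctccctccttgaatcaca
C1qb, chr4:136886201-136886450, minus strand: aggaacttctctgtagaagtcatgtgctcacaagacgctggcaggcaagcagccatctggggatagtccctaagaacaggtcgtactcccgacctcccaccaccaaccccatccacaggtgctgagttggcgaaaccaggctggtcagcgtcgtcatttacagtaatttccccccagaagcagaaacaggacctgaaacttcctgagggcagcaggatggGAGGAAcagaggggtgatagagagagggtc
C1qc, chr4:136892915-136893164, minus strand: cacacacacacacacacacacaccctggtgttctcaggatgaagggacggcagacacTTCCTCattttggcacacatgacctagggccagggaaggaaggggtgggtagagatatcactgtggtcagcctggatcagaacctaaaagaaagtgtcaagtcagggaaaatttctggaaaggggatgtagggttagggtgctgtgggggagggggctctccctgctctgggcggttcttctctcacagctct

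For none of the 10 probes other than Trem3 did the difference between mutant and wild-type cortex pass the test. In limma, with an adjusted p threshold of 0.05, 0 of these 10 probes passed, as did 0% of all 17476 probes tested, and their adjusted p lay between 0.90 and 0.97. The deleted gene did not pass either: Mest, at -1.59 and below 0 on 6 of 6 arrays, had an adjusted p of 0.60 in limma, so the count of 0 says little about the members, and the intervals below give the sizes that the arrays leave possible. At an unadjusted p under 0.05 there were 0 of 10, against 3.93% of all probes. Of the 10 probes 7 had a fitted ratio above 0 and 3 below, with a median of 0.055, beside a median of 0.0069 and 8972 ratios above and 8504 below 0 over all probes. Taken by gene, with the mean of the Trem2 probes and without Trem3, 5 of 8 lay above 0 and 3 below, with a median of 0.045. The SD over 6 arrays was below the median SD of all probes, 0.31, for 7 of the 10, with all 3 Trem2 probes among them. A median splits all probes evenly by definition, so this count says little about the members.

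**Figure D1:**
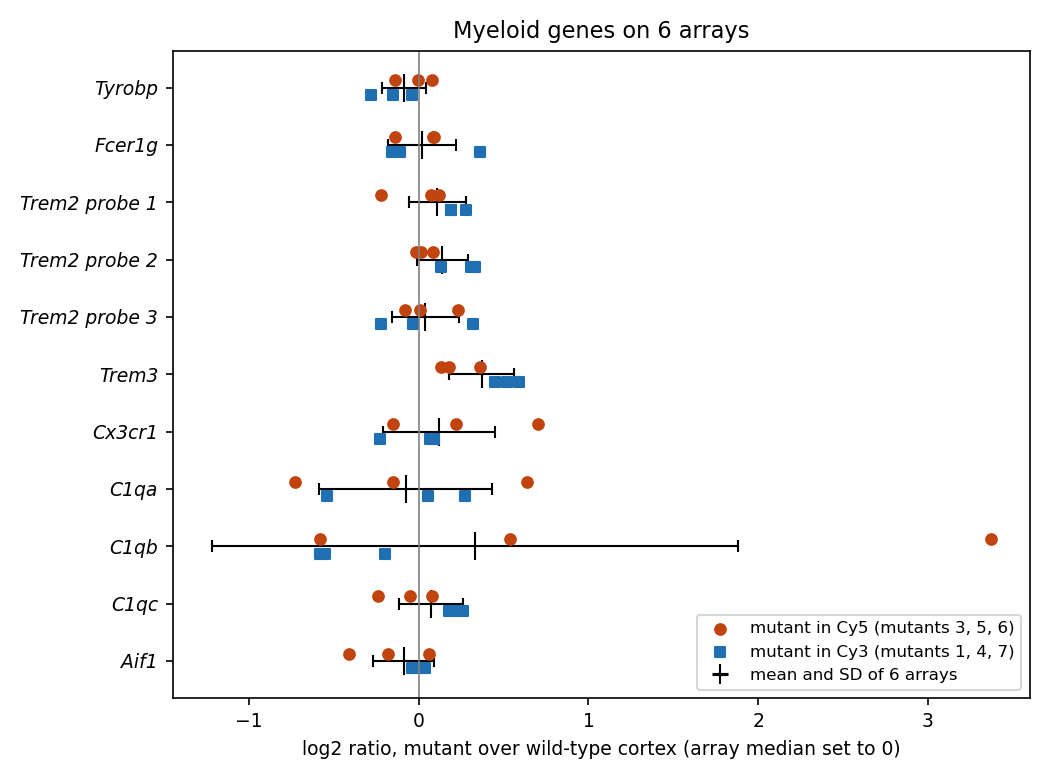
Log2 ratio of mutant over wild-type cortex (horizontal axis) for the 11 probes of 9 myeloid genes, with 1 point per array coloured by the dye of the mutant and the mean and SD of 6 arrays as a bar. Trem3, which was chosen for lying above 0, sits between 0.13 and 0.59, most other points lie near 0, and C1qb on the array of mutant 5 stands alone at 3.37.

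Among the signalling adaptors, Tyrobp had the lowest SD of the 11 probes. Its ratios were -0.14, -0.0015 and 0.079 in mutants 3, 5 and 6 and -0.041, -0.15 and -0.28 in mutants 1, 4 and 7, below 0 on 5 of 6 arrays. The orientations of the dyes overlapped, and the SD of 0.13 was lower than that of all but 8.12% of probes with 6 values. Fitted, Tyrobp lay at -0.089 with a 95% confidence interval from -0.30 to 0.13, which is a level of 0.94-fold (0.81-fold to 1.09-fold; limma, adjusted p = 0.90). Its sign depended on the centring: with arrays not centred Tyrobp lay at 0.16, and centred on control spots at 0.17, where the median of all genes moved to 0.25 and 0.26. Relative to that median it stayed lower in both cases.

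Fcer1g, the adaptor of Fc receptors, was split evenly over arrays. It had -0.14, 0.086 and 0.093 in mutants 3, 5 and 6, and -0.16, -0.11 and 0.36 in mutants 1, 4 and 7. Mutant 7 was the highest, and 3 arrays lay on each side of 0. The fitted ratio was 0.020 with an interval from -0.26 to 0.30 (limma, adjusted p = 0.97, above 0 on 3 of 6 arrays), and without mutant 7 it was -0.054.

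The receptor Trem2, which senses lipids and binds the Tyrobp adaptor, was read by 3 probes annotated to the same transcript. The first had 0.074, 0.12 and -0.22 in mutants 3, 5 and 6 and 0.19, 0.19 and 0.28 in mutants 1, 4 and 7. The second had 0.086, -0.017 and 0.012 against 0.33, 0.31 and 0.13, and the third 0.23, -0.079 and 0.010 against -0.031, -0.22 and 0.32. The first and the second probe were above 0 on 5 of 6 arrays each and had all Cy3 arrays above all Cy5 arrays, while the third was above 0 on 3 arrays and its orientations overlapped. The probes therefore disagree on which mutants were high: the third placed mutant 4 lowest, where the first and second placed it among the higher ones.

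Fitted Trem2 ratios were 0.11 (interval -0.12 to 0.33), 0.14 (-0.049 to 0.33) and 0.040 (-0.24 to 0.32) in the same order of probes. None passed (limma, adjusted p = 0.90, 0.90 and 0.95, above 0 on 5, 5 and 3 of 6 arrays). The upper bounds of the first and the second probe both correspond to a level of 1.26-fold. The sign of the third probe rested on single arrays: it was -0.0087 without mutant 3 and -0.039 without mutant 7.

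**Figure D2:**
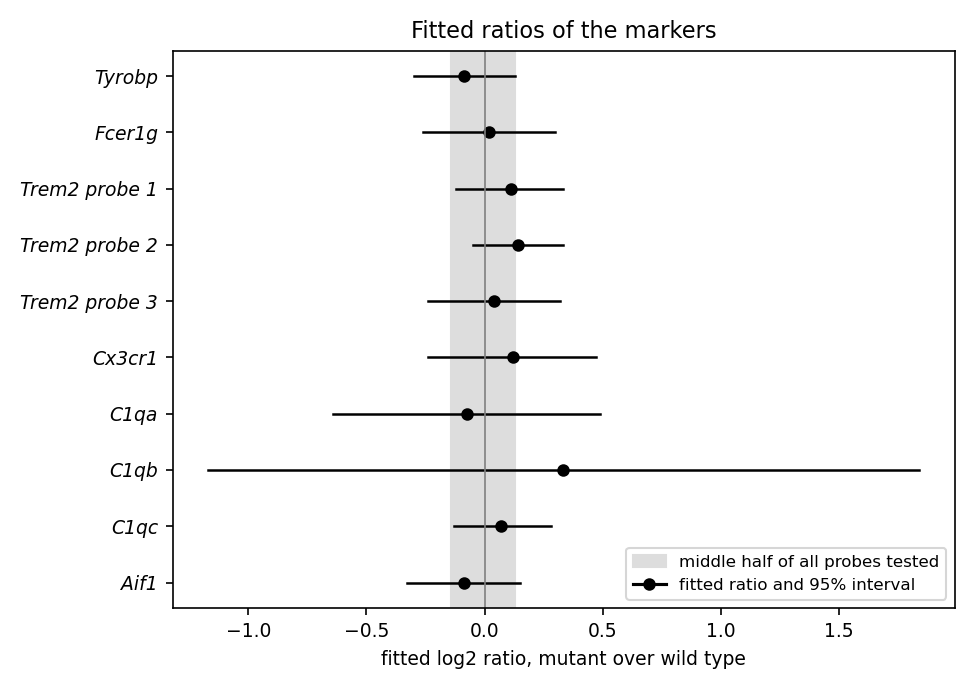
Fitted log2 ratio of mutant over wild type (horizontal axis) with its 95% confidence interval from limma for the 10 probes of the 8 genes other than Trem3, over a grey band that spans the quartiles of all 17476 probes tested (-0.14 to 0.13). Every interval includes 0, and that of C1qb, from -1.17 to 1.84, is the widest of the 10.

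Trem3, a Trem family receptor of macrophages that also couples to DAP12, was selected on its ratios. They were 0.36, 0.13 and 0.18 in mutants 3, 5 and 6 and 0.59, 0.52 and 0.45 in mutants 1, 4 and 7 (mean 0.37 ± 0.19, SD, n = 6). Every array was above 0, which the choice fixed, and the 3 arrays with the mutant in Cy3 lay above the 3 with the mutant in Cy5. Of all probes with 6 values 2.52% were above 0 on every array. Just inside this threshold the lowest Trem3 array was that of mutant 5 at 0.13, and just outside it the second Trem2 probe had a single array below 0, at -0.017. Before centring, Trem3 was 0.62, 0.89 and 0.36 in mutants 3, 5 and 6 and 0.59, 1.10 and 0.16 in mutants 1, 4 and 7, also above 0 on 6 arrays. This adds little, because the array medians before centring were themselves mostly above 0. They were 0.26, 0.764 and 0.186 in mutants 3, 5 and 6 and 0.004, 0.585 and -0.284 in mutants 1, 4 and 7. The share of all probes above 0 on every array before centring was not counted.

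Trem3 sits in a cluster of Trem genes on chromosome 17. Its measured neighbours were closer to 0 or less even, a contrast that the choice of Trem3 by its values favours, so nothing is concluded from it. Trem1, a receptor of neutrophils and monocytes that is the nearest protein-coding gene on one side, had 0.063, 0.086 and -0.21 in mutants 3, 5 and 6 and 0.086, 0.073 and -0.21 in mutants 1, 4 and 7. Its fitted ratio was -0.020 (limma, adjusted p = 0.97, above 0 on 4 of 6 arrays). Treml1, a receptor of platelets and the fifth gene on the other side, had a value on 5 arrays, with 1.82 and 0.14 in mutants 5 and 6 against -0.14, -0.51 and 0.14 in mutants 1, 4 and 7 (fitted 0.41, adjusted p = 0.90). Trem2 is the fourth gene on that side, and the genes between it and Trem3, Treml4 and Treml2 among them, were not tested here.

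The fractalkine receptor Cx3cr1, which marks microglia and monocytes, had -0.15, 0.70 and 0.22 in mutants 3, 5 and 6 and -0.23, 0.064 and 0.092 in mutants 1, 4 and 7. Mutant 5 stood highest, the orientations overlapped, and 4 of 6 arrays were above 0. The fitted ratio was 0.12 with an interval from -0.24 to 0.47 (limma, adjusted p = 0.90). Leaving out mutant 5 gave the lowest value of the single-array omissions, 0.0046.

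The 3 chains of C1q, the complement component that tags debris and synapses, are encoded by neighbouring genes on chromosome 4 and assemble into 1 protein, yet their ratios did not move together over arrays. C1qa had 0.64, -0.73 and -0.15 in mutants 3, 5 and 6 and 0.057, -0.54 and 0.27 in mutants 1, 4 and 7. C1qb had -0.58, 3.37 and 0.54 against -0.55, -0.58 and -0.20. C1qc had 0.077, -0.051 and -0.24 against 0.26, 0.18 and 0.20. Mutant 5 was thus the highest of 6 for C1qb, the lowest for C1qa and near 0 for C1qc. For C1qa this place comes from the centring: the deposited ratio was 0.035 where the array's median was 0.764, and before centring mutant 7 was the lowest, at -0.011.

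The fitted ratio of C1qb, 0.33 with an interval from -1.17 to 1.84, rested on mutant 5 (limma, adjusted p = 0.93, above 0 on 2 of 6 arrays). Without that array the fit gave -0.23, and the mean of the other arrays was -0.28 ± 0.48 (SD, n = 5). The value of 3.37 was at the 98.5th percentile of probes on its array. C1qa was at -0.076 (interval -0.64 to 0.49, adjusted p = 0.95, above 0 on 3 of 6 arrays). C1qc was at 0.071 (interval -0.13 to 0.28, adjusted p = 0.90, above 0 on 4 of 6 arrays), with an SD of 0.19 against 0.51 for C1qa and 1.55 for C1qb. Genes beside the cluster were at 0.27 for Kdm1a (above 0 on 6 of 6 arrays), 0.097 for Epha8, -0.12 for Luzp1 and -0.012 for Wnt4, with adjusted p of 0.90, 0.90, 0.90 and 0.99 in limma.

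**Figure D3:**
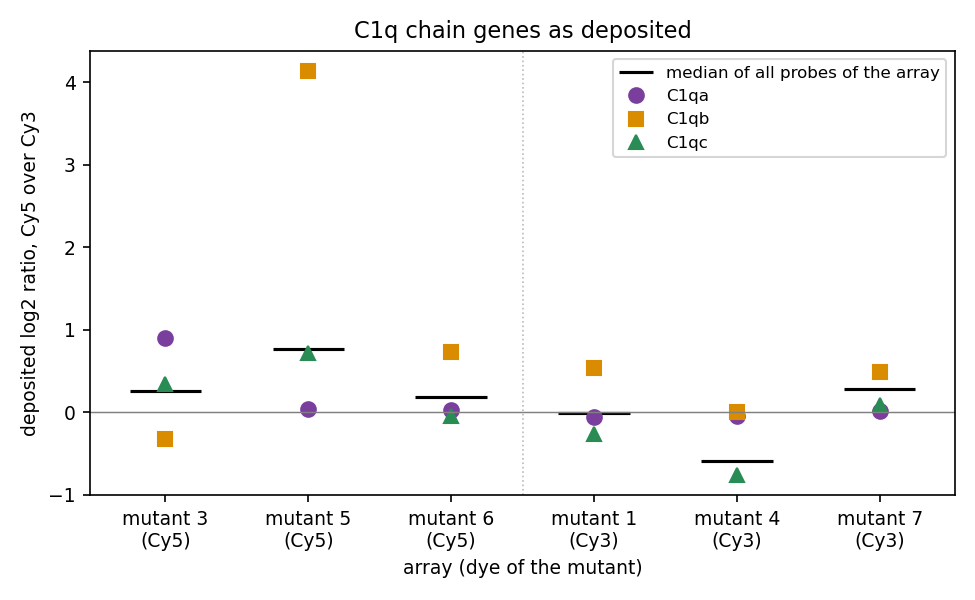
Deposited log2 ratio of Cy5 over Cy3 (vertical axis) of the C1q chain genes on each array, before turning and centring, with the median of all probes of the array as a black bar. C1qc lies near each bar, C1qa stays within 0.061 of 0 on every array except that of mutant 3, and C1qb reaches 4.14 on the array of mutant 5.

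Aif1, which encodes the calcium-binding protein Iba1 used to stain microglia, had -0.18, 0.059 and -0.41 in mutants 3, 5 and 6 and -0.038, 0.036 and 0.013 in mutants 1, 4 and 7. Mutant 6 was the lowest, and 3 arrays lay on each side of 0. The fitted ratio was -0.087 with an interval from -0.33 to 0.15 (limma, adjusted p = 0.90). As for Tyrobp, its sign followed the centring, with 0.17 both without centring and with centring on control spots.

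The dye orientation is a second contrast, which compares arrays with the mutant in Cy5 to those with it in Cy3. Trem3 was chosen by its ratios on these same arrays, so only the other 10 probes were counted. Whether that choice bears on the difference between orientations was not tested. In limma, 0 of these 10 passed the adjusted threshold for the dye term, against 0.269% of all probes, and 0 had an unadjusted p under 0.05, against 20%. A group of 3, namely C1qc and the first and second Trem2 probes, had every Cy3 array above every Cy5 array, and 0 of 10 had the reverse, where 13.9% and 11.1% of probes with 6 values did so, 25% together. For C1qc the Cy5 arrays averaged -0.070 and the Cy3 arrays 0.21, a difference of -0.28 (95% interval -0.60 to 0.037; limma, adjusted p = 0.29). The first and second Trem2 probes differed by -0.23 each (adjusted p = 0.40 and 0.33), and Trem3 had means of 0.22 and 0.52.

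**Figure D4:**
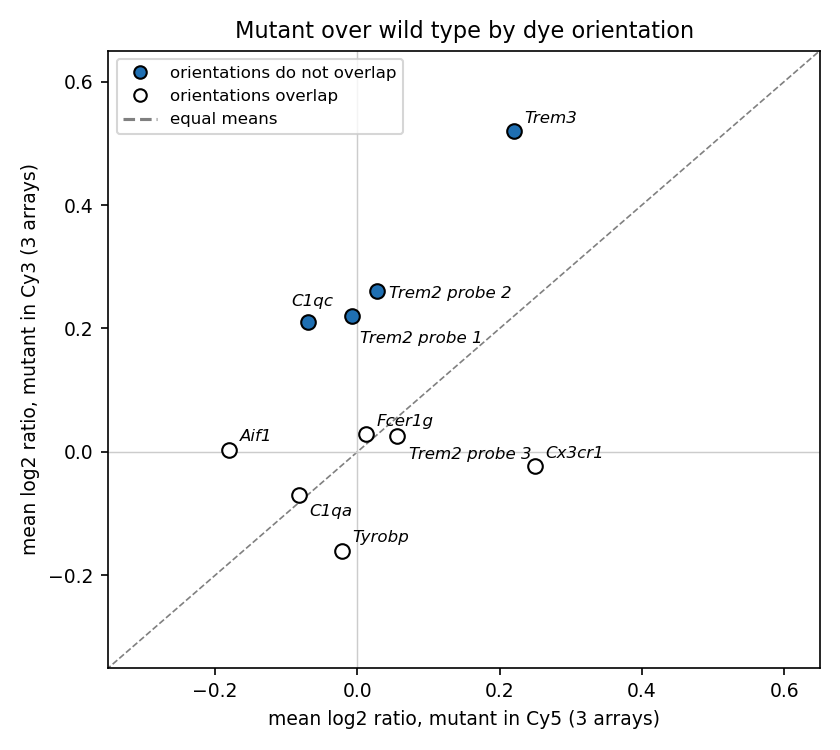
Mean log2 ratio of mutant over wild type on the 3 arrays with the mutant in Cy3 (vertical axis) against the 3 with the mutant in Cy5 (horizontal axis) for 10 probes, with C1qb (1.11 in Cy5, -0.44 in Cy3) outside the range. Filled points, which are Trem3, C1qc and the first and second Trem2 probes, have orientations that do not overlap and lie above the dashed line of equal means.

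Over the 6 arrays the members without Trem3 had correlations of both signs. Of their 28 pairs of genes, 14 had a Pearson correlation above 0 and the median was 0.021. These correlations are descriptions over 6 arrays that share wild-type cortices and dye orientations. C1qb and Cx3cr1 were the most alike (0.94), and both were highest in mutant 5. C1qc followed Trem3 (0.90) and Trem2 (0.89), or 0.64 and 0.78 once the mean of each dye orientation was removed. Tyrobp and its partner receptor Trem2 ran opposite (-0.87, and -0.80 with orientation means removed).

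By the same measure, the probes most like Trem3 among 10955 with 1 gene name and 6 values were those of the histamine receptor gene Hrh3 (0.995), Atn1 (0.991) and the regenerating protein gene Reg3b (0.991), and 300 probes exceeded 0.9. Those most like the mean of the other members were 1600020E01Rik (0.994), the corepressor gene Nab2 (0.989) and the neuromedin receptor gene Nmur1 (0.988), with 191 of 10945 above 0.9. The mean of the other members was -0.046, 0.43 and 0.0086 in mutants 3, 5 and 6 and -0.067, -0.13 and 0.088 in mutants 1, 4 and 7, so that likeness to it is mostly height in mutant 5, the array where C1qb stood at 3.37.

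A list built around receptors of DAP12 and of the Fcer1g adaptor was measured for 18 of 29 genes. Not all of its genes couple to these adaptors, Clec7a among the exceptions. In this list 12 genes were above 0 and 6 below, with a median of 0.11. Of all genes tested 6319 of 12576 (50.2%) were above 0, with a median of 0.0013. In limma 0 of the 19 probes of the list passed the adjusted threshold. An unadjusted p under 0.05 was found for 3 (15.8%), 1 higher and 2 lower, against 3.83% of the probes of all genes tested. Clec7a, the beta-glucan receptor Dectin-1, had 2.98 and 2.76 in mutants 3 and 6 but -0.31, -0.83 and -0.98 in mutants 1, 4 and 7. Its fitted ratio of 1.07 (adjusted p = 0.90) thus joins Cy5 arrays above 0 with Cy3 arrays below 0, and no value was present for mutant 5. It was also the 1 probe of this list to pass for the dye term (limma, adjusted p = 0.040). Clec5a, a DAP12-coupled lectin, showed the same split, with 0.34 and 0.35 against -0.97, -0.77 and -1.05. Clec4e, the receptor Mincle, was at -0.47, and the natural killer receptor gene Ncr1 was at 0.25 and above 0 on 6 of 6 arrays (adjusted p = 0.90 for each of these genes).

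Genes downstream of the ITAM were measured for 21 of 27, with 8 above 0, 13 below and a median of -0.026. Of their 23 probes 0 passed and 1 (4.35%) had an unadjusted p under 0.05, a share near the 3.83% of all genes. This was a probe of Plcg1, a phospholipase of receptor signalling in many cell types, at 0.56 with 6 of 6 arrays above 0 (adjusted p = 0.90 in limma), while the mean of the 2 Plcg1 probes was 0.30. The kinase gene Src was at -0.23 and below 0 on all arrays, and the exchange factor gene Vav3 at 0.30. The adaptor gene Lcp2 was at -0.79 on 5 arrays, of which that of mutant 3 had -3.11. Syk, the kinase recruited by the ITAM, was at 0.015.

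Growth factors and transcription factors of the lineage were measured for 21 of 24 genes, with 12 above 0, 9 below and a median of 0.036, and 0 of 24 probes had an unadjusted p under 0.05. The smallest p belonged to Csf3, a granulocyte growth factor, at -0.37, Irf5 at 0.23, Flt3l at 0.20 and a probe of Kitl at 0.33 (mean of 2 probes 0.29). The ligands of Csf1r and Cx3cr1 had 0.049 for Csf1, 0.20 for Il34 and -0.24 for Cx3cl1. Spi1, Irf8, Runx1 and Sall1, transcription factors of macrophages and microglia, had -0.020, 0.23, -0.34 and 0.091.

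The rest of the complement cascade and its receptors was measured for 26 of 34 genes, with 10 above 0, 16 below and a median of -0.041. Of 27 probes 0 passed and 0 had an unadjusted p under 0.05 in limma. The membrane attack gene C8b was at -0.31 and below 0 on all 6 arrays, and the complement receptor gene Cr2 at 0.42 and above 0 on all 6. Cd55, an inhibitor of the cascade, was at -1.25 for a probe with a value on 4 arrays (mean of 2 probes -0.63), and the C1 inhibitor gene Serping1 at 0.20 (limma, adjusted p = 0.90 for each). C4b and the receptor gene C3ar1 had -0.16 and -0.37.

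Further microglial genes were measured for 19 of 23, with 11 above 0, 8 below and a median of 0.044, and 0 of 20 probes had an unadjusted p under 0.05. P2ry12, a nucleotide receptor that marks microglia, had -0.35, -0.30 and 0.066 in mutants 3, 5 and 6 and -0.16, -0.44 and -0.34 in mutants 1, 4 and 7. Its relative P2ry13 had 0.22, 0.20 and 0.010 against 0.084, 0.12 and 0.092. P2ry12 was thus below 0 on 5 of 6 arrays and P2ry13 above 0 on 6, at -0.25 and 0.12 (limma, adjusted p = 0.90 for each). The median of this list was 0.22, 0.49 and 0.16 in mutants 3, 5 and 6 and -0.15, 0 and -0.17 in mutants 1, 4 and 7. Its orientations thus did not overlap, with the Cy5 arrays above, where C1qc and the first and second Trem2 probes had the Cy3 arrays above. The medians of all genes tested split the same way over a narrower range. They were 0.011, 0.049 and 0.014 in mutants 3, 5 and 6 and -0.022, -0.012 and -0.038 in mutants 1, 4 and 7. The broader macrophage and leukocyte list (32 of 40 genes) had 22 above 0, 10 below and a median of 0.049, with the macrophage gene Adgre1 at -0.12, Cd68 at -0.023, Itgam at 0.17 and the mannose receptor gene Mrc1 at 0.041. Of its 34 probes 1 (2.94%, against 3.83% over all genes) had an unadjusted p under 0.05, that of the inhibitory receptor gene Lilrb4a at -0.35 (limma, adjusted p = 0.90, below 0 on 5 of 6 arrays).

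Other cells that a dissected cortex can hold gave list medians of 0.037 for granulocytes and mast cells (19 genes), 0.11 for lymphocytes (15), -0.24 for red blood cells (12), -0.046 for endothelium (12), 0.047 for meninges and mesenchyme (9) and 0.014 for embryonic cortex (14). Red blood cell genes were above 0 for 2 of 12 genes (16.7%, against 50.2% of all genes) and below 0 for 10, with array medians of -0.28, -0.13 and -0.15 in mutants 3, 5 and 6 and -0.35, -0.067 and -0.44 in mutants 1, 4 and 7. Of their 13 probes 0 passed in limma and 4 (30.8%, against 3.83%) had an unadjusted p under 0.05, all lower. These were probes of the haem synthesis gene Alas2 (-0.24) and of 3 genes that encode embryonic globins. The latter were Hba-x (-0.29, mean of 2 probes -0.23), Hbb-bh1 (-0.36) and Hbb-y (-0.42). Without centring every list median moved up with that of all genes, so that the ITAM and complement lists lay at 0.23 and 0.21 and red blood cells at 0.016, each below the 0.25 of all genes. The part of these other cells in the ratios of Trem3 and the other members was not tested.

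**Figure D5:**
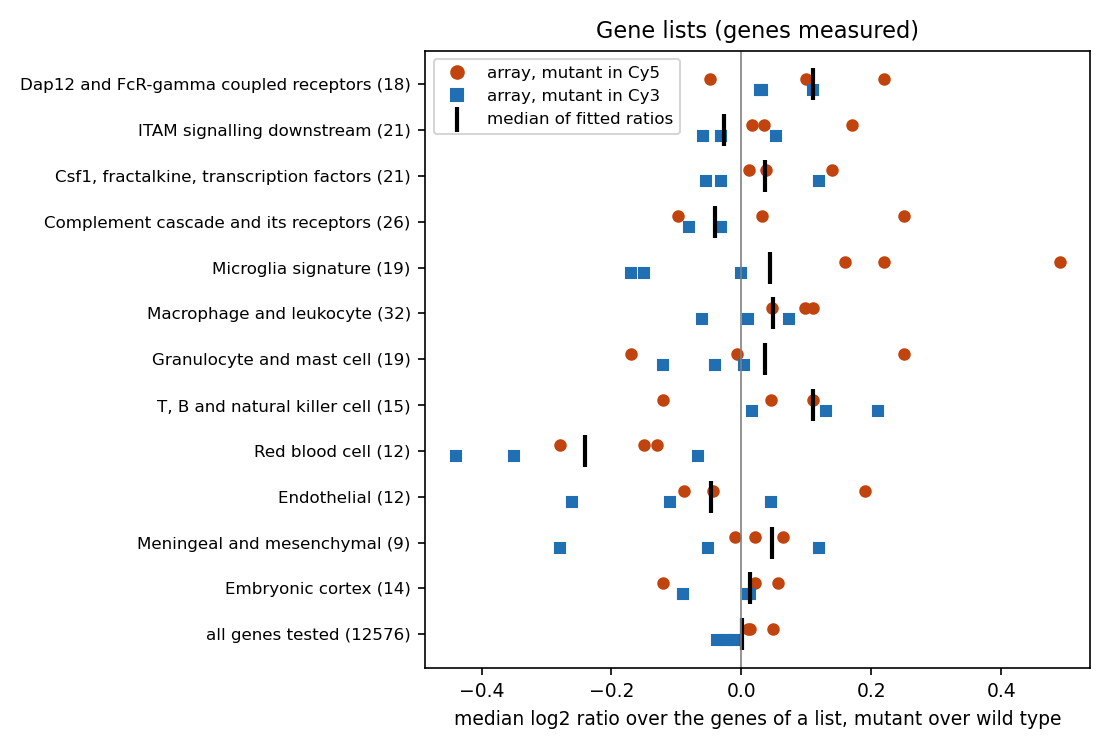
Median log2 ratio of mutant over wild type over the genes of each list (horizontal axis), per array in colour by the dye of the mutant and over the fitted ratios as a black bar, with the number of genes measured in brackets. The myeloid lists have fitted medians between -0.041 and 0.11, and that of red blood cells lies at -0.24. The microglia signature has the mutant-in-Cy5 arrays above the mutant-in-Cy3 arrays, as do all genes tested over a narrower range.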

How the data were processed

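The arrays are 6 two-colour spotted oligonucleotide arrays with RNA extracted by Trizol, per the labels' protocols. The deposited values are log2 ratios of the 2 channels, and how the authors corrected background, filtered spots and normalised is not given in the sources used here. They were read as Cy5 over Cy3, a direction that rests on the dye labels and on Mest. The 590 values at the ceiling of 16.61 were treated as missing, 232 control spots were left out, the sign was set to mutant over wild type, and the array's median was subtracted. Without signal levels, dim or saturated spots and brightness-dependent dye offsets could not be handled, and the number of arrays limits the precision.

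The fit (limma 3.58.1, R 4.3.3, lmFit and eBayes) took probes measured on 4 or more arrays, with 2 or more for each dye of the mutant, and had a genotype and a dye term, wild type as a random block (correlation 0.246) and Benjamini-Hochberg adjustment over all probes. The wild type labelled 1 was read as wild type 2. With 4 arrays the block correlation cannot be estimated and that of all arrays was used. The fit was tested on simulated data. All 11 member probes had 6 values and passed this filter.

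Symbols came from the platform annotation through Entrez identifiers, 15952 of 16632 of which were found in the table of GRCm38.p6. A gene with several probes entered a list as their mean. Members and lists were chosen with earlier results of these data known. By rule, all members, Mest, up to 4 probes with the smallest p per list, neighbours of Trem3 and of C1q, and the 3 probes most like a pattern could be named. Syk, Csf1, Il34, Cx3cl1, Spi1, Irf8, Runx1, Sall1, C4b, C3ar1, Adgre1, Cd68, Itgam and Mrc1 were named beside the rule, after their values were seen. Alternatives covered centring, scaling, quantile normalization, block, dye term, missing values, robust moderation and omitted arrays.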

Additional observations from a re-analysis of the deposited data

Results flagged for a closer look

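The C1qb ratio of mutant 5, at 3.37, stood apart from the other arrays, which lay between -0.58 and 0.54. Its gap to the nearest array was 0.72 of the whole range, above Dixon's critical value for 6 arrays. Of the 10 member probes other than Trem3 tested this way it was the only one past that value. Chance gives about 1 in 20 groups if the values are independent and normally distributed, but these arrays share wild-type cortices and dye orientations. The share of all probes past the value was not counted, so how unusual the C1qb ratio is on these arrays cannot be said. On the same array Cx3cr1 had its highest ratio, 0.70. The cause was not tested.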

How the results depend on the processing

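Under the 21 alternatives 0 probes passed the adjusted threshold for genotype and 0 member probes for the dye term where it was refitted, but Mest (adjusted p = 0.60) did not pass in the fit of all arrays either, so little can be read from these counts. Without centring and with centring on control spots, ratios rose with the median of all genes (0.25 and 0.26): Trem3 was 0.62 and 0.63, the median of member genes 0.32 and 0.33 with Trem3 and 0.30 and 0.31 without it (this omission was chosen after seeing the data), Tyrobp 0.16 and 0.17, C1qa 0.18 and 0.19, and Aif1 0.17 in both. Without both arrays of wild type 8, Cx3cr1 was -0.017, C1qa 0.20 and C1qb -0.20, and without those of wild type 9, Fcer1g was -0.084 and the third Trem2 probe -0.023. With the mutant in Cy5 only, the first Trem2 probe was -0.0075 and C1qc -0.070. With it in Cy3 only, Cx3cr1 was -0.023, C1qb -0.44 and Aif1 0.0037. Leaving out 1 array at a time gave 0.34 to 0.39 for Trem3, 0.0046 to 0.11 for the member median with Trem3 and 0.0030 to 0.076 without it, -0.054 to 0.056 for Fcer1g, -0.039 to 0.10 for the third Trem2 probe, -0.25 to 0.086 for C1qa and -0.23 to 0.75 for C1qb. No cause of these changes was tested. With ratios alone, signal over background, and so a change of a dim gene, could not be judged.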

Other observations

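The C1qa probe had deposited ratios of 0.035 and 0.033 in mutants 5 and 6 and of -0.061, -0.046 and 0.011 in mutants 1, 4 and 7, although the medians of these arrays were 0.764, 0.186, -0.004, -0.585 and 0.284. On 5 of 6 arrays it was thus within 0.061 of 0, which held for 6 of the 13531 probes with 6 values (0.0443%), C1qa among them. The array of mutant 3 gave 0.896. After centring, the C1qa ratios on the arrays of mutants 5, 6, 1, 4 and 7 largely reflect the median subtracted from each. C1qb had a deposited ratio of exactly 0 on the array of mutant 4. This pattern was noticed after the values were seen, and its cause was not tested.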
